A study of Homo sapiens with 8 samples.

Results

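The 10 genes described here are the classical feedback genes of the mitogen-activated protein kinase (MAPK) pathway, DUSP4, DUSP5, DUSP6, SPRY2, SPRY4, SPRED1, SPRED2, ETV4, ETV5 and PHLDA1. They were chosen by name, 10 of 20007 annotated protein-coding genes, and the measurement is H3K27ac, the acetylation of lysine 27 of histone H3 that marks active promoters and enhancers. Each gene was given a window of its gene body plus 50 kb on either side. The 10 windows together spanned 1406 kb of hg38 and held 177 of the 143733 intervals obtained by merging the peaks of all 6 libraries. The libraries were 3 of wild-type (WT) and 3 of CREBBP-KO HCEC-1CT cells. HCEC-1CT is a human colonic epithelial line immortalised with hTERT and CDK4, and it carried doxycycline-inducible Cas9 as a single isolated clone. CREBBP (CBP in the labels) is a histone acetyltransferase, and the question was how acetylation around these genes compares once it is lost. Both genotypes were grown in the same medium, which contained EGF, the ligand that switches the pathway on, and insulin. The labels number the 3 libraries of a genotype and do not say whether they came from separate cultures. The study's methods call the knockout line monoclonal and also describe pooling of clones, so the effect of CREBBP loss and that of the clone or clones chosen cannot be told apart, and p-values measure only the spread between libraries, which may be technical.

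The MAPK pathway relays growth factor signals through RAS, RAF and MEK to the kinases ERK1 and ERK2. ERK activity induces a small group of genes whose products restrain the same pathway: dual-specificity phosphatases (the DUSP genes) remove the activating phosphates from MAP kinases, while Sprouty and Spred proteins (the SPRY and SPRED genes) act upstream, on the path from the receptor to RAS and RAF. ETV4 and ETV5, ETS-family transcription factors of the PEA3 group, and PHLDA1, which encodes a pleckstrin homology-like protein, are induced alongside them, and these transcripts are widely used as a readout of ERK output.

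Peaks are given by their fold, the linear enrichment over local background, and by their percentile, the rank of that fold within the library's own list (100 is the highest peak). There were 93567, 92891 and 86163 peaks in the libraries of WT cells, against 111697, 105017 and 99008 in those of the knockout. Among the intervals tested genome-wide, the median percentile ranged from 79.1 to 80.7 over the WT libraries and from 82.0 to 83.7 over the knockout libraries, so a percentile a few points higher in CREBBP-KO is the common state, and the rank shift described below is computed from ranks among the tested intervals alone. The percentile of the CREBBP promoter peak ranged from 94.8 to 98.6 over the WT lists and from 98.8 to 99.3 over the knockout lists, which does not check the knockout, since acetylation of the promoter is not a measure of the protein. Of 10 colonic epithelial markers 4 had a promoter peak in some or all lists, none of them high. EPCAM had one in all 6 at percentiles 0.175 to 46.1, with 5.27 ± 4.44 in WT and a higher 33.8 ± 13.3 in CREBBP-KO (SD, n = 3). It was below the fold filter and not tested. KRT8 and KRT18 had one in 5 of 6, both at 32.9 to 57.7, which may be a single peak counted for both genes. LGALS4 had one in 3 at 45.3 to 52.5. CDH1, KRT19, KRT20, VIL1, CDX1 and CDX2 had none in any list. The mesenchymal genes VIM, COL1A1, COL1A2 and PDGFRB stood at percentiles 93.3 to 99.9 in all 6 lists, and COL1A1 and COL1A2 were ranked higher in CREBBP-KO (limma adjusted p = 0.00084 and 0.0174). PTPRC, CD3E and CDH5, which mark leukocytes, T cells and endothelium, had no promoter peak in any list, and PECAM1 had one in 5 of 6. The part of cell state in the results below was not tested.

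Intervals around the feedback genes were called in both directions, in neither at a share above that of all intervals genome-wide. Of the 177 intervals, 68 had a peak in all 6 libraries, and 40 of these also reached a fold of 5 in all 3 libraries of at least 1 genotype and were tested. In a limma fit to normal scores of the ranks over all 34864 such intervals, 5 of the 40 (12.5%) ranked higher and 7 (17.5%) lower in CREBBP-KO at an adjusted p under 0.05, and 28 were not called. Genome-wide the same rule called 18.6% of intervals higher and 18.7% lower. The filter can itself select for a difference: of the 12 called intervals, 2 called higher reached a fold of 5 in all 3 libraries of CREBBP-KO only and 3 called lower in those of WT only, and for these the shift with no fold filter is given below as well. With no fold filter, 7 of 68 intervals were called higher and 5 lower. The genome-wide share over all intervals of that fit is not given here, so these counts cannot be set against it. For the 28 below the filter, 2 were called higher and 0 lower, against 4.45% and 4.79% of such intervals genome-wide. The median shift of the 40 was -0.04 normal-score units, against 0.02 over all tested intervals. Without fitting, the percentiles of the 3 CREBBP-KO libraries all lay above those of the 3 WT libraries at 11 of the 40 intervals and all below at 6, where the genome-wide shares were 34.2% and 15.2%. The other 109 intervals had a peak in fewer than 6 lists, 58 of them in 1 list only.

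**Figure D1:**
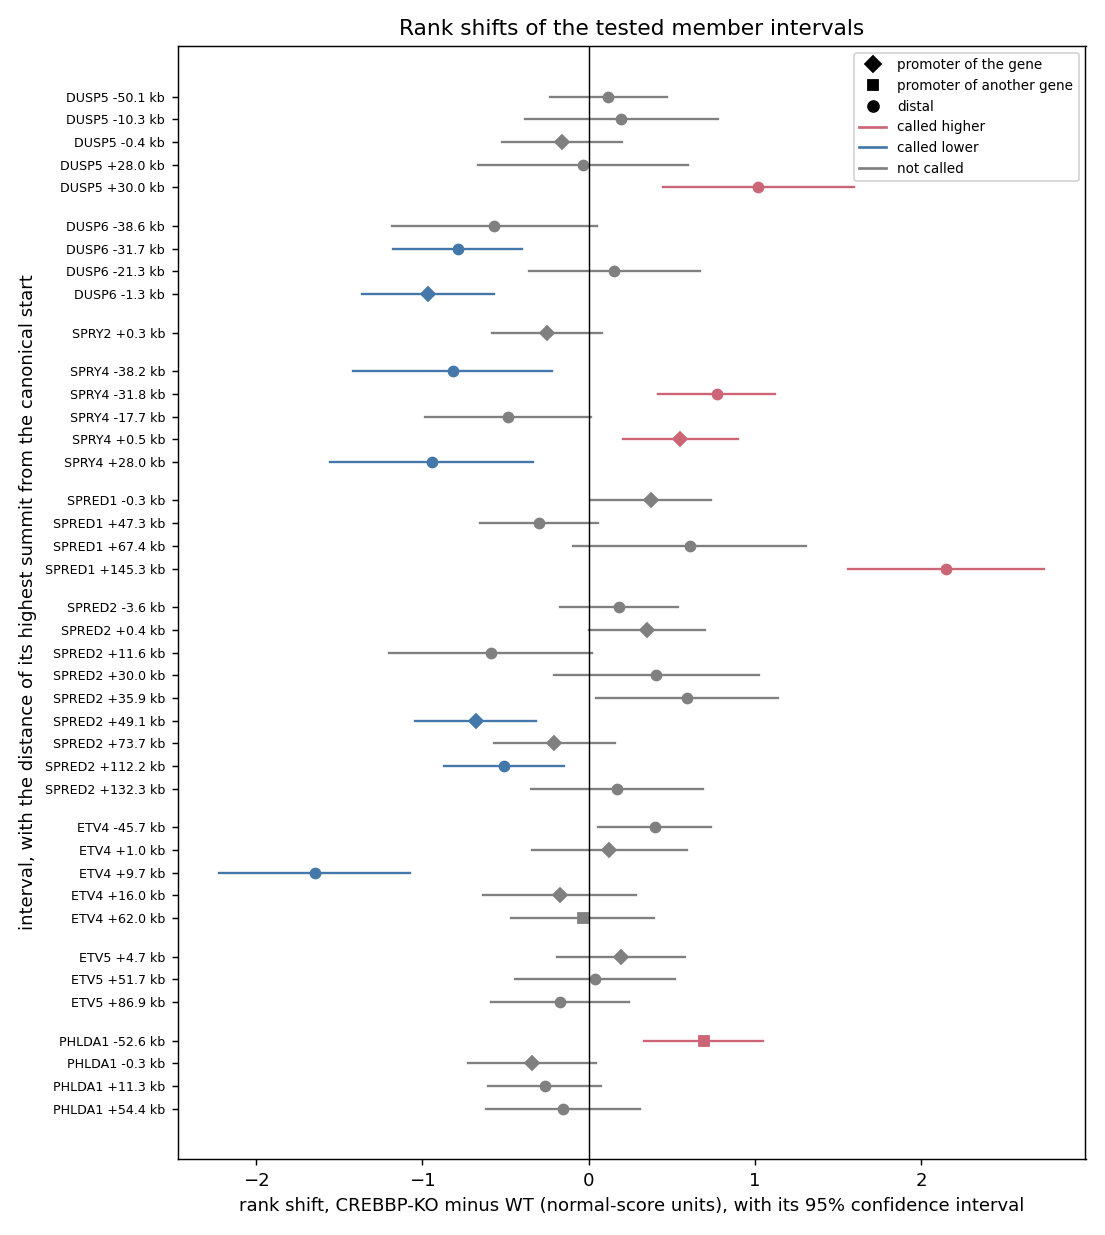
Rank shift (CREBBP-KO minus WT, normal-score units, x axis) of the 40 tested intervals with the 95% confidence interval as a line, grouped by gene and ordered by distance of the highest summit from the canonical start (positive is downstream); diamonds are promoters of the gene, squares promoters of another gene and circles distal intervals. The 5 intervals called higher run from 0.55 to 2.15, the 7 called lower from -1.65 to -0.51, and SPRY4 has 2 of each.

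By position, 12 of the 40 tested intervals were promoters of the 10 genes, that is, the merged interval reached within 1 kb of a protein-coding transcript start. The highest peak of such an interval need not itself reach a start, and in some libraries it did not at SPRED2 and ETV5, as given below. Of these 1 was called higher and 2 lower, and the median shift was -0.17, where all tested promoter intervals had 25.9% called higher, 8.98% called lower and a median shift of 0.20. Of 26 distal intervals 3 were called higher and 5 lower with a median shift of 0.001, while distal intervals genome-wide had 14.9% called higher, 23.6% called lower and a median shift of -0.10. Taken as 1 promoter for each gene, the highest, 9 of the 10 genes were tested, with 1 called higher, 1 lower and a median shift of 0.125, so the sign of the median depends on whether alternative promoters are counted. The last 2 tested intervals were promoters of neighbouring genes in the windows, DHX8 and NAP1L1. The medians are descriptions of a short list.

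The sequence is shown for a stretch within each of 5 called distal intervals and 2 called promoter intervals, with matches to 3 motifs in capitals. These are TGANTCA, bound by AP-1 (FOS and JUN proteins), CCGGAA, the core bound by ETS factors, and TGACGTCA, the element bound by CREB, a partner of CREBBP. They were searched on both strands and did not overlap in the stretches shown. The distal stretches are 250 bases of hg38, plus strand, around the median summit of the 6 libraries. The ETV4 stretch was moved by 70 bases to leave out an untranslated exon. The promoters are the 250 bases before the RefSeq start (GRCh38.p14), on the strand of the gene. They were not placed by the summit, and at DUSP6 the summits of the highest peaks lay further upstream, from 89353702 to 89353963.
SPRED1 downstream, called higher, chr15:38397962-38398211: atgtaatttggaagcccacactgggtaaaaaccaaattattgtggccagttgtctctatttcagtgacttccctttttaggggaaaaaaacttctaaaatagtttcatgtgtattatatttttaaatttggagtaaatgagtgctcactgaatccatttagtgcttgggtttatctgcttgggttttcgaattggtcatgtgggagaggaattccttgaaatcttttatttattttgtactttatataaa
DUSP5 downstream, called higher, chr10:110527836-110528085: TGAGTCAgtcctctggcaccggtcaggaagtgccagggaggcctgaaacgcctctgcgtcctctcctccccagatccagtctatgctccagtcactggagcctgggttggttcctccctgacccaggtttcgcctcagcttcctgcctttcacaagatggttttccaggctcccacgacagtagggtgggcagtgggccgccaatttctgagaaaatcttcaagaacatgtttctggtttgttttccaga
SPRY4 upstream, called higher, chr5:142356721-142356970: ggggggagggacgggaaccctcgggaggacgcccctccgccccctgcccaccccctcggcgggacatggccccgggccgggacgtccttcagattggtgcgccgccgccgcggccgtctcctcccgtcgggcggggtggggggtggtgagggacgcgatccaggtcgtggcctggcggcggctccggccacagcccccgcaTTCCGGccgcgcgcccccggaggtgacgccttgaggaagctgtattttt
ETV4 intron, called lower, chr17:43536162-43536411: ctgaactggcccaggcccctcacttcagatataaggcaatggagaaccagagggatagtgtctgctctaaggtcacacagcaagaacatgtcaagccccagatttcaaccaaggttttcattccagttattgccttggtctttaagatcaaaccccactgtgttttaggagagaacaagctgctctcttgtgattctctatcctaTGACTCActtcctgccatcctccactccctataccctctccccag
DUSP6 upstream, called lower, chr12:89384068-89384317: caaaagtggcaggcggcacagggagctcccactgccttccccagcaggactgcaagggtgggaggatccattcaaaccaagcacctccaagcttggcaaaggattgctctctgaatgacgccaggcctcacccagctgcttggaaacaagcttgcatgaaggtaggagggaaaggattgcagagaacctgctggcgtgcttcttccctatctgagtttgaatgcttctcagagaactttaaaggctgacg
DUSP6 promoter, called lower, chr12:89352502-89352751, minus strand: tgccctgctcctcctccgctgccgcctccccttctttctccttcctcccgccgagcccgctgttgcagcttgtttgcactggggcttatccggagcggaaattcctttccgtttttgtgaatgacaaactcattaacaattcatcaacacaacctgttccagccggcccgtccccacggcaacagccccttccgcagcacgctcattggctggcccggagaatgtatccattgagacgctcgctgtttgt
SPRY4 promoter, called higher, chr5:142324248-142324497, minus strand: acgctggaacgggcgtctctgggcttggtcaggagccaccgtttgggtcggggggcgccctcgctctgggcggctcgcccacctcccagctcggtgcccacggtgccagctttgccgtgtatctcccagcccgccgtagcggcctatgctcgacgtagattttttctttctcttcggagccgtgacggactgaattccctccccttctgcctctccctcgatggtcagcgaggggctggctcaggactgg

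The AP-1 pattern, which allows any middle base, was found at 3 of the 8 called distal intervals, ETV4, DUSP5 and the SPRY4 interval 28.0 kb downstream of the start. The SPRY4 match, in a stretch not shown, was TGAATCA, while DUSP5 had TGAGTCA and ETV4 TGACTCA. The same pattern was in 11% of the 23277 tested distal windows around the median summit, which were not moved off untranslated exons. The ETS motif was found at 1, the SPRY4 interval upstream of the gene, against 3.14% of windows, and TGACGTCA at 0, against 0.12%. That SPRY4 stretch was also the richest in G and C, with 76.0% of bases, where the SPRED1 stretch had 32.8% and the median window 44.4%. RefSeq promoter entries were matched for 6 of the 10 genes (9 entries). The ETS motif was present in 2 of the 9, one each of PHLDA1 and SPRY2, and in 14.5% of 35116 promoters, and the AP-1 and CREB motifs were in 0 of the 9, against 6.57% and 1.65%. A match is a run of letters and not a measured binding site.

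The 3 phosphatase genes differed in level and in the direction of their calls. DUSP4 (ENSG00000120875.9, chromosome 8 from 29333064 to 29350684, minus strand), which encodes a nuclear MAP kinase phosphatase, had little H3K27ac. Its promoter peak had folds of 3.39, 4.49 and 3.87 in WT and 4.73, 4.23 and 3.17 in CREBBP-KO. The ranges overlapped, at percentiles of 40.9 ± 10.9 and 47.3 ± 16.6 (SD, n = 3), and none of its 4 intervals passed the fold filter.

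DUSP5 (ENSG00000138166.6, chromosome 10 from 110497907 to 110511533, plus strand), a nuclear phosphatase specific for ERK, had a high promoter peak with folds of 16.9, 19.2 and 19.2 in WT and 21.0, 16.6 and 21.1 in CREBBP-KO, and a shift of -0.16 ± 0.18 (SE) that did not pass the test (limma adjusted p = 0.492). An interval between genes 30.0 kb downstream of the start, from 110527031 to 110531480, was ranked higher in CREBBP-KO. Its folds were 4.32, 6.33 and 5.83 in WT and 8.77, 8.64 and 9.58 in CREBBP-KO. All 3 CREBBP-KO values lay above the WT values, and the shift was 1.02 ± 0.28 (SE, limma adjusted p = 0.00647). The interval passed the fold filter through CREBBP-KO only, and with no filter its shift was 0.70 ± 0.20 (SE, limma adjusted p = 0.0129). The highest distal interval of this window, within an intron of the divergent transcript DUSP5-DT 50.1 kb upstream of the start, stood at percentiles of 93.5 ± 2.42 and 95.3 ± 1.89 (SD, n = 3) and was not called (shift 0.12 ± 0.17, limma adjusted p = 0.61).

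DUSP6 (ENSG00000139318.8, chromosome 12 from 89347235 to 89352501, minus strand) encodes the cytoplasmic ERK phosphatase, and its promoter was called lower. The folds of the highest promoter peak were 22.7, 22.8 and 16.0 in WT and 13.1, 15.5 and 13.6 in CREBBP-KO. The lowest WT library lay just above the highest CREBBP-KO library, the percentiles were 97.5 ± 2.49 and 91.4 ± 1.63 (SD, n = 3), and the shift was -0.97 ± 0.19 (SE, limma adjusted p = 0.000595). The summit of the highest peak, that of WT 2, lay 1.3 kb upstream of the start, in an exon of the lncRNA ENSG00000286608 that is transcribed away from DUSP6.

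The DUSP6 promoter interval, from 89345785 to 89355270, also took in the gene body. At the far end of the gene each library had a second and lower peak, with its summit beyond that end except in WT 2. Its fold was 4.54, 6.68 and 6.51 in WT and 3.49, 4.07 and 4.60 in CREBBP-KO, and these ranges overlapped. In CREBBP-KO 1 the upstream peak was split in 2, with folds of 11.3 and 13.1, and the higher piece was 2261 bp wide against 5589 to 7230 bp in the other 5 libraries. When the peak nearest to the middle of the interval was used instead of the highest, the sign turned (0.62, limma adjusted p = 0.689). In WT 2 that choice takes a peak of fold 2.32 inside the gene.

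A distal interval of DUSP6, 31.7 kb upstream of the start in an intron of the same lncRNA (89382660 to 89386733), was also called lower. Its folds were 11.7, 13.5 and 12.4 in WT and 8.30, 8.61 and 9.39 in CREBBP-KO, with no overlap, and the shift was -0.79 ± 0.19 (SE, limma adjusted p = 0.00258). The other tested intervals of this window, 21.3 kb and 38.6 kb upstream, were not called, with shifts of 0.16 ± 0.25 and -0.57 ± 0.30 (SE, limma adjusted p = 0.647 and 0.138).

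**Figure D2:**
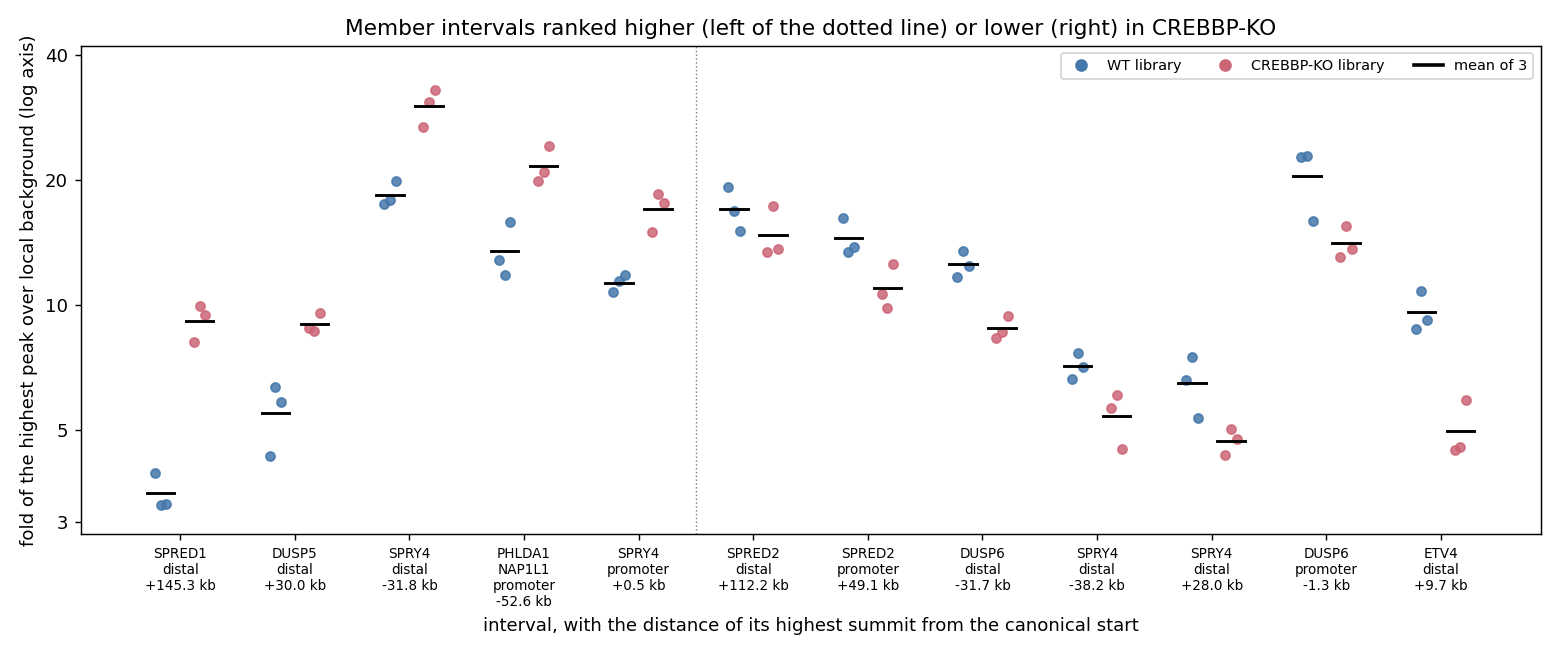
Fold over local background (log axis) of the highest peak in each library at the 12 called intervals, with WT and CREBBP-KO libraries as points and the mean of 3 as a bar; the 5 on the left are ranked higher in CREBBP-KO and the 7 on the right lower. The SPRED1 interval has the widest gap, with WT folds of 3.30 to 3.92 below CREBBP-KO folds of 8.12 to 9.90, while the WT and CREBBP-KO folds at the first interval right of the line, SPRED2 +112.2 kb, overlap.

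The Sprouty genes encode inhibitors of receptor tyrosine kinase signalling. SPRY2 (ENSG00000136158.12, chromosome 13 from 80335976 to 80341126, minus strand) had folds of 17.4, 14.5 and 15.4 at its promoter in WT and 14.6, 16.8 and 15.2 in CREBBP-KO. The ranges overlapped and the shift was -0.25 ± 0.16 (SE, limma adjusted p = 0.228). No distal interval of SPRY2 was tested, and the highest, 22.8 kb upstream, had folds of 6.55, 5.03 and 4.71 in WT and 2.70, 4.25 and 4.62 in CREBBP-KO.

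SPRY4 (ENSG00000187678.10, chromosome 5 from 142310427 to 142326455, minus strand) had the most calls of the 10 genes, with 4 of its 5 tested intervals called, in both directions. Its promoter was higher in CREBBP-KO: the folds were 10.7, 11.4 and 11.8 in WT and 15.0, 18.5 and 17.6 in CREBBP-KO, the percentiles 87.2 ± 1.26 and 94.7 ± 1.11 (SD, n = 3), and the shift 0.55 ± 0.17 (SE, limma adjusted p = 0.0128). The call was lost without CREBBP-KO 2 (0.47, limma adjusted p = 0.0688) and when peaks were ranked by their -log10 p in place of the fold (0.30, limma adjusted p = 0.103). The summit of the highest peak, that of CREBBP-KO 2, lay in the RefSeq promoter stretch shown above, within intron 1 of the canonical transcript.

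The highest distal interval of SPRY4, 31.8 kb upstream of the start (142355790 to 142359076) in an intron of the antisense transcript SPRY4-AS1 and 3303 bp from the nearest annotated start of that transcript, had folds of 17.5, 17.9 and 19.8 in WT and 26.8, 30.8 and 32.9 in CREBBP-KO. All CREBBP-KO values lay above all WT values and the shift was 0.77 ± 0.17 (SE, limma adjusted p = 0.00154). The -log10 p of the same peaks was 143.3, 149.1 and 158.8 in WT and 135.4, 167.7 and 204.4 in CREBBP-KO, which overlap, and ranking by it left a shift of 0.04 (limma adjusted p = 0.856). This call therefore holds for the fold and not for the significance of the peaks.

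The lower calls of SPRY4 were at weaker distal intervals on either side of the gene. At 28.0 kb downstream of the start (142295806 to 142297846) the folds were 6.57, 7.48 and 5.34 in WT and 4.34, 5.02 and 4.75 in CREBBP-KO, with a shift of -0.95 ± 0.29 (SE, limma adjusted p = 0.0152). At 38.2 kb upstream (142361930 to 142364010) they were 6.62, 7.65 and 7.08 in WT and 5.64, 6.06 and 4.49 in CREBBP-KO, with a shift of -0.82 ± 0.29 (SE, limma adjusted p = 0.0297). The folds did not overlap at either, while the percentiles overlapped at the first, where WT 3 stood at 59.96 and CREBBP-KO 2 at 61.9. Both intervals passed the fold filter through WT only, and with no filter neither was called (-0.58 and -0.50, limma adjusted p = 0.0603 and 0.0765). The first call was lost without WT 1 or WT 2 (limma adjusted p = 0.0628 and 0.109), and the second without WT 2, WT 3 or CREBBP-KO 3 (limma adjusted p = 0.101, 0.0777 and 0.145). The fifth tested interval, 17.7 kb upstream, was not called (-0.49, limma adjusted p = 0.116). Below the filter, an interval 20.1 kb downstream, described here after its values were seen, had folds of 3.45, 3.05 and 4.30 in WT and 4.87, 5.85 and 4.50 in CREBBP-KO, without overlap. In the fit with no fold filter it was not called (0.75 ± 0.32, SE, limma adjusted p = 0.0882). It was 1 of 7 among the 28 member intervals below the filter whose CREBBP-KO percentiles all lay above those of WT.

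The Spred proteins inhibit RAS signalling at the membrane, SPRED1 by recruiting the RAS GTPase-activating protein neurofibromin. The SPRED1 promoter (ENSG00000166068.13, chromosome 15 from 38252836 to 38357249, plus strand) was among the highest peaks of every list. Its folds were 18.8, 20.2 and 22.1 in WT and 26.7, 30.5 and 26.96 in CREBBP-KO, without overlap, at percentiles of 98.0 ± 0.82 and 99.3 ± 0.27 (SD, n = 3). The shift of 0.38 ± 0.17 (SE) did not pass the test (limma adjusted p = 0.0918) and did without WT 3 (0.47, limma adjusted p = 0.0457).

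The interval with the largest shift of all 40 lay between genes 145.3 kb downstream of the SPRED1 start, beyond the end of the gene (38396968 to 38399248). Its folds were 3.92, 3.30 and 3.30 in WT and 8.12, 9.90 and 9.42 in CREBBP-KO. The percentiles went from 32.3 ± 10.2 in WT to 81.9 ± 1.55 in CREBBP-KO (SD, n = 3), and the shift was 2.15 ± 0.29 (SE, limma adjusted p = 1.33e-05), the 64th highest of 34864. The interval passed the fold filter through CREBBP-KO only, its WT folds all being under 5, and with no filter the shift was 1.66 ± 0.24 (SE, limma adjusted p = 4.78e-05). In each WT list the interval held 2 separate peaks, the higher of them 325 to 416 bp wide, and in each CREBBP-KO list 1 peak of 1281 to 2281 bp. The nearest annotated transcript start was that of FAM98B, 56040 bp away, and which gene the interval acts on is not known from these data. An interval in intron 2, 47.3 kb downstream of the start, had the highest distal peaks and was not called, with percentiles of 91.3 ± 2.11 and 89.3 ± 0.91 (SD, n = 3) and a shift of -0.30 ± 0.17 (limma adjusted p = 0.171).

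SPRED2 (ENSG00000198369.10, chromosome 2 from 65310851 to 65432637, minus strand), a paralogue of SPRED1, had the largest window and 9 tested intervals. At the canonical promoter the folds were 13.5, 13.6 and 13.4 in WT and 20.7, 16.7 and 17.5 in CREBBP-KO. These did not overlap, but the shift of 0.35 ± 0.17 (SE) did not pass the test (limma adjusted p = 0.107). A merged interval that reached an alternative start within intron 1, from 65376716 to 65390893, was called lower. In WT 1 and WT 3 its highest peak did not itself come within 1 kb of a start, so the call is not one of a promoter peak alone. The folds of the interval were 16.2, 13.4 and 13.8 in WT and 10.6, 9.81 and 12.6 in CREBBP-KO. The shift was -0.68 ± 0.18 (SE, limma adjusted p = 0.00475), and -0.35 with ranks of -log10 p (limma adjusted p = 0.0765). A further merged interval that reached an alternative start in intron 1, from 65356389 to 65372435, was not called (shift -0.21 ± 0.18, SE, limma adjusted p = 0.364). Its folds were 14.05, 15.7 and 12.8 in WT and 15.6, 13.7 and 13.1 in CREBBP-KO, which overlap. There the highest peak of WT 1 and of WT 2 did not itself come within 1 kb of a start.

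In intron 4 of SPRED2 an interval from 65318392 to 65324518, described here after its values were seen, was called lower with folds of 19.2, 16.8 and 15.1 in WT and 13.4, 17.3 and 13.6 in CREBBP-KO. The folds overlapped, and the shift of -0.51 ± 0.18 (SE, limma adjusted p = 0.0263) lost its call without WT 1, WT 2, CREBBP-KO 1 or CREBBP-KO 3 (limma adjusted p = 0.115, 0.0623, 0.0914 and 0.119). The highest distal interval of this window, 3.6 kb upstream of the start, stood at percentiles of 96.1 ± 1.48 and 97.6 ± 1.00 (SD, n = 3) and was not called (limma adjusted p = 0.419).

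**Figure D3:**
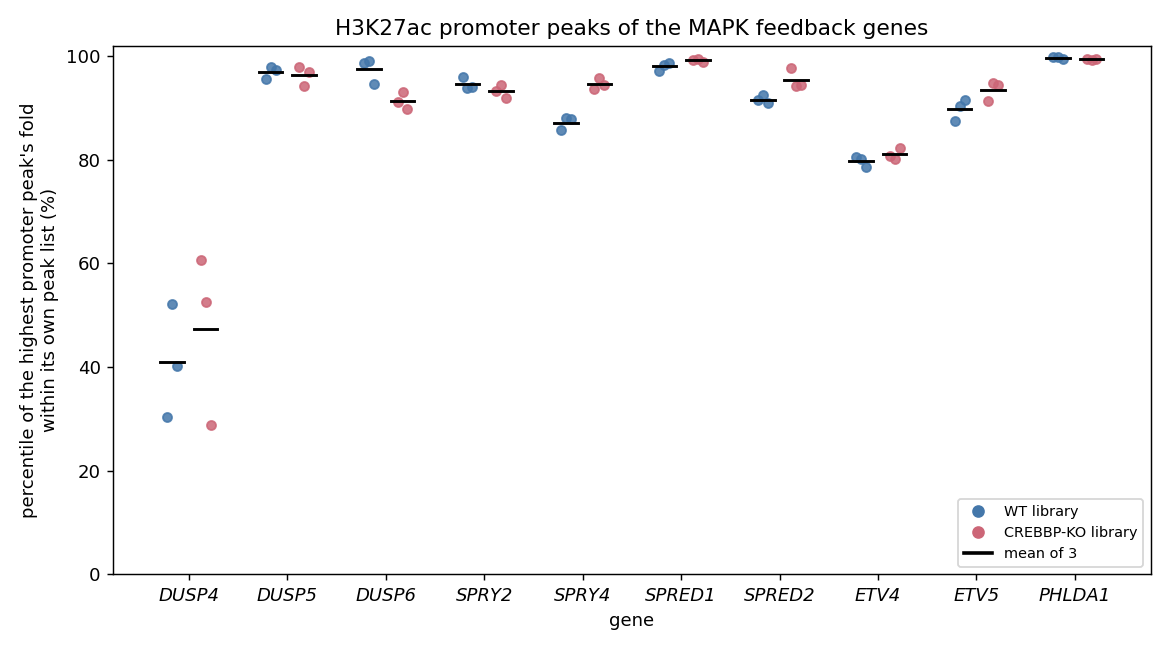
Percentile of the highest promoter peak within its own list (y axis, 100 is the highest fold) for each gene, with WT and CREBBP-KO libraries as points and the mean of 3 as a bar. DUSP4 stands apart at 28.8 to 60.7, the other 9 genes lie between 78.5 and 99.9, and the groups do not overlap at DUSP6 and PHLDA1 (lower in CREBBP-KO) and at SPRY4, SPRED1 and SPRED2 (higher).

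ETV4 (ENSG00000175832.13, chromosome 17 from 43527844 to 43579620, minus strand) overlaps DHX8 on the other strand, and a histone mark has no strand, so their signals cannot be separated. The peak at its canonical start was lower than those of most of the group, with folds of 7.92, 7.07 and 8.62 in WT and 8.17, 8.45 and 9.76 in CREBBP-KO and a shift of 0.13 ± 0.23 (SE, limma adjusted p = 0.688). An interval in intron 4 of the canonical transcript, from 43535518 to 43537790, had the largest fall of the group. The folds were 8.75, 10.8 and 9.18 in WT and 4.46, 4.55 and 5.88 in CREBBP-KO, percentiles of 82.4 ± 3.74 and 60.5 ± 5.96 (SD, n = 3). No values overlapped, and the shift was -1.65 ± 0.28 (SE, limma adjusted p = 0.000142). The interval passed the fold filter through WT only, and with no filter its shift was -1.08 ± 0.19 (SE, limma adjusted p = 0.00041). The highest distal interval of the window, 45.7 kb upstream of the start in an intron of DHX8, had folds of 12.6, 12.3 and 11.9 in WT and 18.0, 16.7 and 16.3 in CREBBP-KO without passing the test (shift 0.40 ± 0.16, limma adjusted p = 0.0592).

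ETV5 (ENSG00000244405.8, chromosome 3 from 186046314 to 186110318, minus strand) had 3 tested intervals and no call. The interval that covers its start had folds of 11.4, 14.6 and 13.7 in WT and 13.1, 19.1 and 17.6 in CREBBP-KO, which overlap (shift 0.19 ± 0.19, limma adjusted p = 0.43). In WT 2 and CREBBP-KO 2 these came from a peak that did not reach the start. The peak at the start itself had folds of 11.4, 12.5 and 13.7 in WT and 13.1, 17.4 and 17.6 in CREBBP-KO, which also overlap. The highest distal interval, between genes 86.9 kb downstream of the start, stood at percentiles of 88.4 ± 5.57 and 88.4 ± 1.00 (SD, n = 3). A weak interval in intron 5, from 186098635 to 186100158, had too low a fold for the filter, with 2.36, 2.69 and 2.54 in WT and 5.58, 4.40 and 4.97 in CREBBP-KO. In the fit with no fold filter it was called higher (1.86 ± 0.40, SE, limma adjusted p = 0.00197).

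PHLDA1 (ENSG00000139289.15, chromosome 12 from 76025447 to 76031776, minus strand) had the highest promoter of the group in all libraries except CREBBP-KO 2, where SPRED1 was higher, with folds of 30.7, 29.8 and 26.6 in WT and 28.3, 29.0 and 30.9 in CREBBP-KO. The folds overlapped, the percentiles (99.7 ± 0.16 and 99.5 ± 0.08, SD, n = 3) did not, and the shift was -0.34 ± 0.19 (SE, limma adjusted p = 0.152). The interval called higher in this window belonged to the neighbouring gene: it is the promoter of NAP1L1, a nucleosome assembly protein, with folds of 12.8, 11.8 and 15.8 in WT and 19.8, 20.9 and 24.1 in CREBBP-KO (shift 0.69 ± 0.17, limma adjusted p = 0.00363). With the peak nearest to the middle of the interval, its shift was -1.10 (limma adjusted p = 0.16).

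Among the 10 promoters taken as single values, PHLDA1, SPRED1, DUSP6 and DUSP5 stood highest in WT, followed by SPRY2, SPRED2, ETV5, SPRY4, ETV4 and DUSP4. The WT ranges of neighbours in this order overlapped from SPRED1 through DUSP6 and DUSP5 to SPRY2, and from SPRED2 through ETV5 to SPRY4. They did not overlap between PHLDA1 and SPRED1, between SPRY2 and SPRED2, or between SPRY4, ETV4 and DUSP4. In two-sided exact permutation tests of the percentiles, the 5 genes whose groups did not overlap (DUSP6, SPRY4, SPRED1, SPRED2 and PHLDA1) reached p = 0.1, the smallest that 3 libraries against 3 allow, and an adjusted p of 0.2 over the 10 genes. No promoter could thus pass a threshold of 0.05 by this test. Such separation was common: over all tested intervals genome-wide, 34.2% had all CREBBP-KO percentiles above all WT ones and 15.2% all below. With the canonical start alone, ETV4 was separated as well, at 76.0 ± 2.95 in WT and 81.0 ± 1.29 in CREBBP-KO (SD, n = 3).

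The number of peaks in the windows followed the length of the lists. The windows held 131, 141 and 125 peaks in WT and 177, 152 and 145 in CREBBP-KO, means of 132.3 ± 8.08 and 158 ± 16.8 (SD, n = 3), a ratio of 1.19 (p = 0.1 by a two-sided exact permutation test, which can give no smaller value). The whole lists had a ratio of 1.16. Per 100000 peaks of the list the windows had 145.6 ± 5.91 peaks in WT and 149.9 ± 7.48 in CREBBP-KO (exact permutation test, p = 0.6), and they were covered by peaks over 273.7 ± 10.3 kb and 287.8 ± 20.3 kb (exact permutation test, p = 0.4). SPRED2 and PHLDA1 were the genes where all CREBBP-KO libraries had more peaks than all WT libraries, with 37, 35 and 32 against 24, 27 and 23 at SPRED2 and 31, 25 and 27 against 21, 23 and 22 at PHLDA1. The length covered by peaks was larger in CREBBP-KO at SPRED2, with 57.5, 66.3 and 67.5 kb against 55.2, 53.5 and 51.1 kb in WT, and smaller at PHLDA1, with 41.4, 43.0 and 50.3 kb against 52.0, 54.9 and 50.5 kb, in neither case with overlap.

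**Figure D4:**
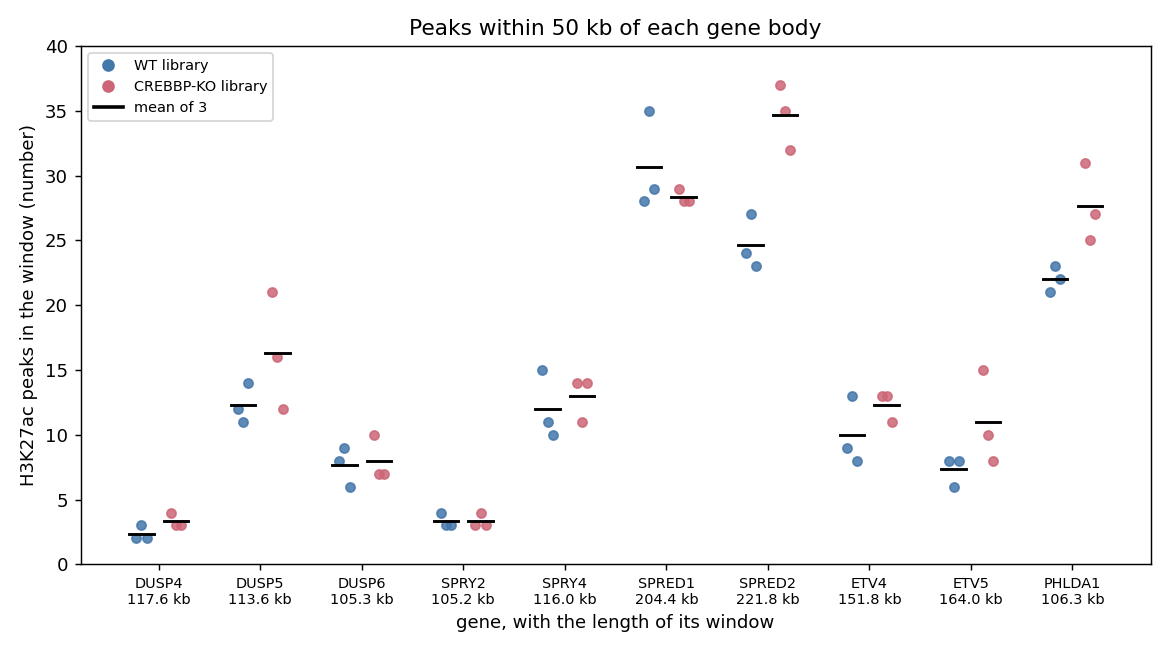
Number of H3K27ac peaks (y axis, from 0) within 50 kb of each gene body in every library, with WT and CREBBP-KO libraries as points and the mean of 3 as a bar; the length of each window is given under the gene. At SPRED2 and PHLDA1 the 3 CREBBP-KO libraries lie above the 3 WT libraries, and at SPRED1 both groups lie between 28 and 35.

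A peak in all 3 CREBBP-KO lists and in no WT list was seen at 3 of the 177 intervals, against 2.66% genome-wide, and the reverse at 0, against 1.08%. The 3 intervals were low: in an intron of DUSP5-DT the folds were 2.31, 2.84 and 3.10, in an exon of DHX8 in the ETV4 window 3.47, 2.71 and 2.96, and at an alternative start in intron 2 of SPRED2 3.12, 3.07 and 2.67. The 28 intervals with a peak in all 6 lists but below the fold filter were fitted with no filter. Of them 2 were called higher and 0 lower at an adjusted p under 0.05 (limma), where 4.45% and 4.79% of such intervals genome-wide were called. These were the ETV5 intron interval above and an alternative start of ETV4 from 43578516 to 43580252, with folds of 2.42, 3.27 and 3.29 in WT and 4.18, 4.22 and 5.01 in CREBBP-KO (shift 1.08 ± 0.39, limma adjusted p = 0.047).

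Other genes of the pathway were read at their promoters. Of 28 genes of the signalling cascade 26 were tested, with 5 called higher, 7 called lower and a median shift of 0.02, beside the 25.9% and 8.98% of all promoter intervals given above and the median of 0.125 over the 9 feedback genes counted in the same way. Those called higher included the MEK genes MAP2K2 (1.34 ± 0.17, SE, limma adjusted p = 1.08e-05) and MAP2K1 (0.84 ± 0.19, limma adjusted p = 0.00183). The largest shifts down were those of the adaptor SHC1 (-0.76 ± 0.17, limma adjusted p = 0.00192) and the RAF kinases ARAF (-0.75 ± 0.18, limma adjusted p = 0.00241) and BRAF (-0.70 ± 0.19, limma adjusted p = 0.00542). Both called RAF promoters thus fell while both MEK promoters rose.

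Among 12 paralogues of the feedback genes 9 were tested, with 0 called higher and 2 lower, the phosphatases DUSP1 (-0.60 ± 0.18, SE, limma adjusted p = 0.0113) and DUSP10 (-0.47 ± 0.17, limma adjusted p = 0.0376). Their median shift was 0.06. For this list and the next, the share over all tested promoter intervals was 25.9% called higher and 8.98% called lower, with a median shift of 0.20. Among 18 further genes induced by ERK 16 were tested, with 3 called higher, 1 lower and a median shift of 0.10. MCL1, an inhibitor of apoptosis, rose by 1.04 ± 0.17 (SE, limma adjusted p = 0.000135), the EGF-receptor ligand HBEGF by 0.99 ± 0.31 (limma adjusted p = 0.0153) and the cytokine LIF by 0.61 ± 0.20 (limma adjusted p = 0.0192). The HBEGF percentiles were 52.6 ± 10.4 in WT and 75.5 ± 4.6 in CREBBP-KO (SD, n = 3). HBEGF passed the fold filter through CREBBP-KO only, so the filter can have selected for its difference, and its shift with no filter is not given here. FOSL1, an AP-1 subunit, was called lower, with a shift of -0.99 ± 0.18 (limma adjusted p = 0.00028).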

How the data were processed

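H3K27ac ChIP-seq was analysed in 3 WT and 3 CREBBP-KO libraries of HCEC-1CT cells. The input libraries were not used here. The authors aligned the reads to hg38 in the ChIP-seq workflow of nf-core (BWA is named in the submitters' processing notes), and MACS2 gave a separate list of narrow peaks for every library. The study's methods describe downsampling of reads to a common maximum per sample before the workflow was run again; the sources used here do not say if the deposited lists came from the full or the downsampled reads, nor name the input used as control. The deposited lists hold the fold of each peak over local background, a linear ratio, and the deposited -log10 p and -log10 q, of which the smallest -log10 q is 1.3. A deposited score was not used. The methods give an average sequencing depth only. Read counts are not part of the lists, so each library's depth is not known here and no counting intervals were computed.

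No peak exceeded its chromosome's length in the hg38 reference. Overlapping or touching peaks were merged over the 6 lists, and the highest fold of each interval and library was kept. Intervals with a peak in all 6 lists and a fold of at least 5 in all 3 libraries of a genotype were tested with limma (lmFit, eBayes with a trend) on normal scores of the ranks. Shifts are CREBBP-KO minus WT, and p-values were adjusted over all tested intervals after Benjamini and Hochberg. For a single value in each library, exact permutation tests (two-sided) were used. Genes and starts were those of GENCODE release 44, and summits were placed by the highest peak. The fit was tested on simulated data.

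The genes, the gene lists and the tests were chosen with earlier results of these data known. Named intervals were the promoters of the 10 genes, the highest distal interval of each window and up to 4 called intervals in each direction with the largest shift, and in each gene list up to 3 called genes in each direction. A gene that this rule names is not reported here. Alternatives changed the fold filter, the ranking, the model, the window, the peak taken and the list length, and left out each library. Fits were run in R 4.3.3 with limma 3.58.1, and the rest in Python 3.11.15 (scipy 1.17.1, pandas 2.3.3, numpy 2.4.6).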

Additional observations from a re-analysis of the deposited data

How the results depend on the processing

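Of 398 refitted shifts of 27 member intervals, 364 kept their sign and their side of the threshold, 23 lost the call, 2 gained it, 1 came to 0 (the DUSP5 promoter without CREBBP-KO 2) and 8 turned sign. With the peak nearest to the middle of the interval these were the called DUSP6 promoter (0.622) and NAP1L1 promoter (-1.103) and, among those not called, the promoters of SPRED1 (-0.21) and ETV5 (-1.016) and the uncalled alternative promoter of SPRED2 (1.204). The others were the ETV4 promoter (-0.089) and the distal SPRED2 interval upstream of the start (-0.279) with ranks of -log10 p, and the highest distal interval of ETV5 (-0.35 to 0.079 with 1 library left out, the latter without WT 2), none of them called in either fit. The 5 intervals called higher became 3 at a fold of at least 10, 3 with ranks of -log10 p, 2 with windows of 25 kb, and 5 to 7 with 1 library left out, but 7 with windows of 100 kb. At a fold of at least 3, and with no fold filter, 7 were called higher and 5 lower. Genome-wide shares under these alternatives are not given here. The 7 called lower became 4 at a fold of at least 10, 3 with the peak nearest to the middle, 12 with windows of 100 kb, and 4 to 7 with 1 library left out, the 4 being without WT 2. The median promoter shift of -0.168 moved to -0.077 under a fold filter of 3, to -0.282 under one of 10, to -0.07 with no filter and to between -0.191 and -0.081 with 1 library left out. The excess of 25.67 peaks per library in the CREBBP-KO windows was 16 with windows of 25 kb, 14.67, 2.667 and -1.667 among peaks whose fold reached 3, 5 and 10, 9 among those whose -log10 q reached 5, 4.667 with lists of equal length, and 16.17 to 32.17 with 1 library left out, the lowest without CREBBP-KO 1. The causes of these changes were not tested, except that a higher fold filter or a narrower window leaves fewer intervals.

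Same-numbered libraries did not deviate together (correlations of 0.011, 0.014 and 0.028), so the numbers were not taken as pairs. With the replicate block, 5 intervals were called higher and 7 lower and the median promoter shift was -0.168. The depth of each library could not be read from the lists, which limits what can be said of weak peaks.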
